A study of Mus musculus with 36 samples.

Results

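Abasic (AP) sites are nucleotides that have lost their base while the sugar and phosphate backbone is kept. The AP site landscape of the liver of old mice is described here. It rests on the 2 AP site libraries labelled as liver, and these were compared with the 10 AP site libraries of the other 5 tissues (bone marrow, brain, heart, peripheral blood mononuclear cells (PBMCs) and sperm, with 2 libraries each). In all, 24 lesion libraries were used, 12 of AP sites and 12 of single-strand breaks (SSBs). Per the labels, all tissues came from 2 male mice of the C57BL/6J strain aged 24 months, and no treatment or engineered allele is named. The labels do not say that a replicate number marks an animal, so p-values measure the spread between libraries. Sperm DNA was isolated with another kit than the DNA of the other tissues. AP sites were mapped with SSiNGLe-AP, which records the single nucleotide and the strand of each lesion. The 2 liver libraries held 486732 and 460719 positions, together 947451 of the 8824020 AP positions of all 12 libraries. These were the 2 shallowest AP libraries, since the other 10 held 564343 to 963258 positions with a median of 795997. A position was counted once, whatever its count. Lesions do not mark a cell type, so marker genes could not be used to check the tissue label.

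AP sites arise when a damaged or unstable base is lost on its own or is cut out by a DNA glycosylase, the first enzyme of base excision repair. An AP endonuclease then opens the strand, and a polymerase and a ligase fill and close the gap. Liver is made up mainly of hepatocytes, which produce most plasma proteins and carry out much of the body's metabolism of lipids, amino acids and foreign compounds. Genes that are transcribed have a template strand, which is read by the RNA polymerase, and a coding strand with the sequence of the transcript.

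The sequences below show what the positions look like on the genome. They are RefSeq sequences of GRCm38.p6, in lower case, with capitals at the nucleotides that carried an AP position in liver. All were chosen by their liver positions, so the numbers of the other libraries beside them are no comparison of tissues. The first pair are promoter windows, from 250 bases before a gene's start to 50 after it, of the hepatocyte genes that had a position in each of the liver libraries. Slc10a1 is the main bile salt uptake carrier of hepatocytes, and its window is chr12:80968030-80968329 on the minus strand. Liver replicate 1 had 2 positions in it, liver replicate 2 had 1, and the other 10 libraries had 1 together. The 3 liver positions lay 109, 60 and 36 bases before the start, all on the strand of the gene. Bhmt encodes betaine-homocysteine methyltransferase, and its window is chr13:93637709-93638008 on the minus strand. It held 1 position of each liver library, 125 and 78 bases before the start, and 2 of the other 10 libraries together. Of the liver positions 1 lay on the strand of the gene and the other on the opposite strand.
Slc10a1: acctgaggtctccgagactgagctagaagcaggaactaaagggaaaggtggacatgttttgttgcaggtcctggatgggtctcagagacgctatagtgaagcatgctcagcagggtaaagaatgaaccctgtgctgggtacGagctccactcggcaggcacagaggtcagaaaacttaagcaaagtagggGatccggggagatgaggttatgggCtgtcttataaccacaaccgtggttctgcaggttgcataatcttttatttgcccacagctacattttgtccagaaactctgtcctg
Bhmt: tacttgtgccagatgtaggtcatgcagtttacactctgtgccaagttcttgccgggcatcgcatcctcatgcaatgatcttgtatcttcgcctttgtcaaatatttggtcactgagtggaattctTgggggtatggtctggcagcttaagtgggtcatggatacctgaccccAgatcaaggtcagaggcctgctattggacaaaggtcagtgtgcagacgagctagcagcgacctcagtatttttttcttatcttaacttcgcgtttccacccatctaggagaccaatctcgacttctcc
The next pair are the stretches of promoter windows in which 3 adjacent nucleotides of one strand carried an AP position in a liver library, written along the strand of the lesions. Both came from liver replicate 1, and none of the other 10 libraries had a position on these nucleotides. The first lies in the promoter window of Ola1 (chr2:73214666-73214697, plus strand) and the other in that of the non-coding gene Gm12119 (chr11:33634507-33634549, minus strand).
Ola1: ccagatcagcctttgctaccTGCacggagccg
Gm12119: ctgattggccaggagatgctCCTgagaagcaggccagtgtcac

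The 2 liver libraries were less alike than the 2 libraries of any other tissue. Across 100 kb windows, the Spearman correlation of liver replicate 1 with liver replicate 2 was 0.833 over 26003 windows, the lowest of all 66 pairs of AP libraries, while the pairs of the other 5 tissues lay between 0.901 and 0.925. The depth of the libraries enters these values. With every library thinned to 460719 positions, the correlation of the liver pair was 0.828 over 25935 windows and ranked 8 from the lowest of the 66, while the pairs of the other tissues had 0.854 to 0.879. At that depth liver replicate 1 had a correlation of 0.821 to 0.831 with the libraries of the other tissues, with a mean of 0.827. Liver replicate 2 had 0.849 to 0.876 with them, with a mean of 0.868, and the libraries of the other tissues had 0.845 to 0.88 with each other. So liver replicate 1 stood apart from all others, and liver replicate 2 lay among the libraries of the other tissues. All these correlations are descriptions across windows, which share the base composition and gene content of the genome.

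**Figure D1:**
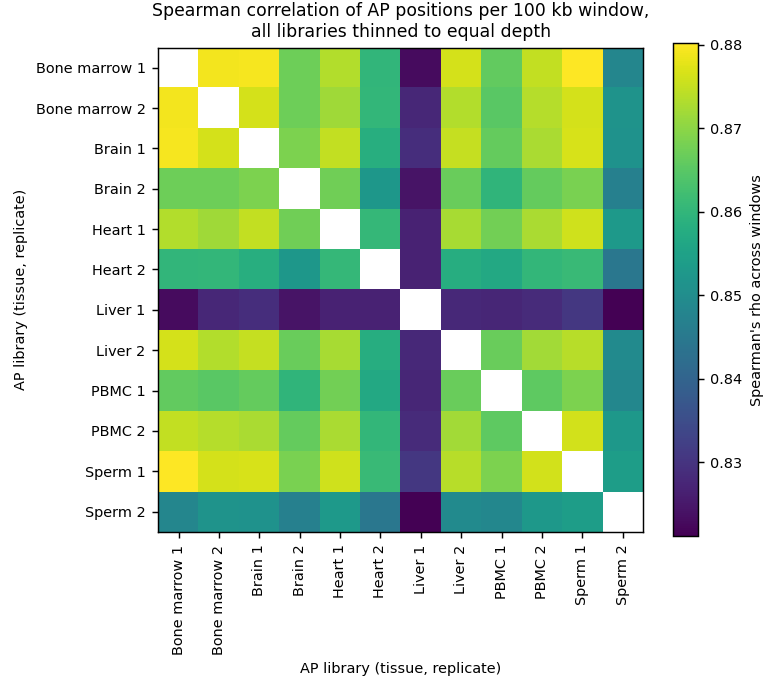
Spearman correlation of AP positions per 100 kb window between all pairs of the 12 AP libraries, each thinned to 460719 positions; rows and columns are libraries and colour gives the correlation. The row of liver replicate 1 is dark throughout (0.821 to 0.831), while liver replicate 2 has 0.849 to 0.876 with the libraries of the other tissues.

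The spread between the liver libraries was also above counting noise. Over 19715 windows with at least 20 positions in the pair, the variance between the 2 libraries was 1.25 times that of Poisson counts. It was 1.23 times for sperm and 1.03 to 1.07 times for bone marrow, brain, heart and PBMCs. In 1 Mb windows, at the depth of each library, the ratio was 2.87 for liver and 2.63 for sperm, against 1.18 to 1.5 for the other 4 tissues. In these larger windows, 206 of 2589 differed between the liver libraries in an exact binomial test with Benjamini-Hochberg adjustment, 157 of 2598 between the sperm libraries and 0 to 4 in the other tissues. That test compares libraries and not conditions. Whether the liver pair differed more than the pair of another tissue was not tested, since there is 1 pair per tissue. The nucleotides themselves were rarely hit again. At equal depth the liver libraries had 655 nucleotides in common, 0.142% of their positions, against 739 to 940 in the pairs of the other tissues and 652 to 853 between a liver library and one of another tissue.

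Liver replicate 1 had its positions more evenly spread over the genome. When the windows were ordered by their AP density in the other 10 libraries, the lowest decile of windows held 1.84% of the positions of liver replicate 1, 1.41% of those of liver replicate 2 and 1.26% to 1.56% of those of the others. The highest decile held 17.8% in liver replicate 1, 21.2% in liver replicate 2 and 19.4% to 22.1% in the others. Liver replicate 1 was outside the range of the other 10 libraries at both ends of this order, and liver replicate 2 inside it. The other 10 libraries set the order themselves, which can widen their own contrast between deciles, so their range is an uneven reference. Neither liver library entered the order. The same split followed gene content. Windows without a gene start held 25.9% of the positions of liver replicate 1 and 23.6% of those of liver replicate 2 (others 22.7% to 25.2%), and windows with 7 or more gene starts held 4.52% and 5.28% (others 4.64% to 5.65%). In the 300 bases around gene starts it followed the GC content. In the decile of promoter windows with the lowest GC content, LPKM-AP was 0.45 in liver replicate 1 and 0.414 in liver replicate 2 (others 0.29 to 0.399). Here LPKM-AP is the number of AP positions times 1e+09 over the product of length in bp and library size in positions. In the decile from 59.7% to 64% GC it was 0.642 and 1.09 (others 0.861 to 1.16), and in the highest decile 0.334 and 0.568 (others 0.322 to 0.707). Both liver libraries were thus above all others in the promoters of lowest GC content, and only liver replicate 1 was below them from 50% to 69.7% GC.

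**Figure D2:**
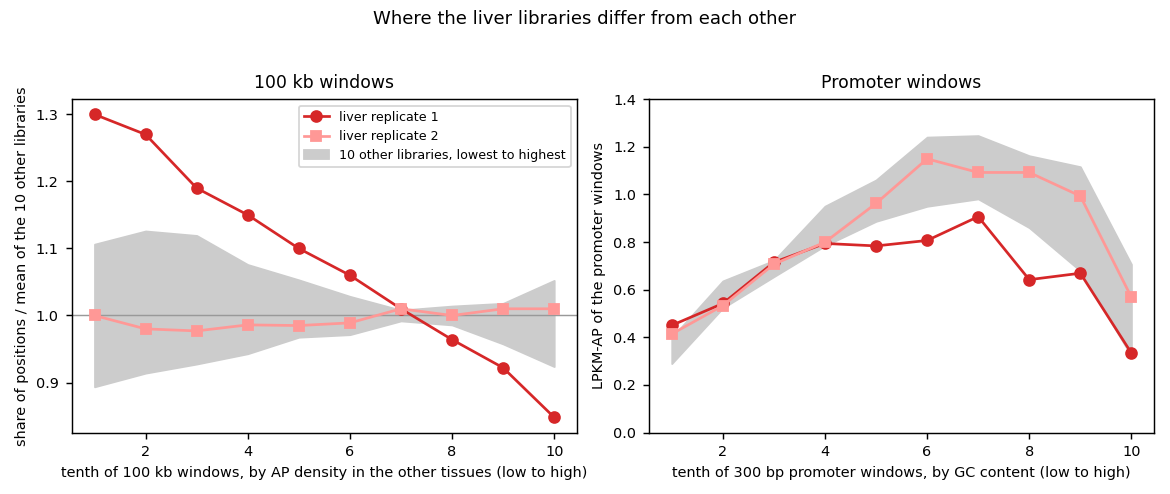
Left, share of AP positions in deciles of the 100 kb windows, divided by the mean of the 10 libraries of other tissues, whose density gave the order of windows; right, LPKM-AP of 300 bp promoter windows in deciles of GC content. Points are the liver libraries and the grey band spans the other 10; liver replicate 1 goes from 1.3 to 0.848 on the left, while liver replicate 2 stays between 0.977 and 1.01.

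For 13 shares of positions fixed for the comparison, liver was set against the other tissues with a two-sided exact permutation test over the 66 choices of 2 of 12 libraries. The smallest p this test can give is 0.0152. It exchanges single libraries although each tissue has 2, so its p measures the spread between libraries and not between tissues. After Benjamini-Hochberg adjustment over the 13 shares, none passed 0.05, and 4 had an unadjusted p under 0.05. For 3 shares, both liver libraries lay above all 10 others. These were the share on the template strand of genes, the share with a close neighbour and the share with a count above 1. Each of the 3 had the smallest p of the exact test, 0.0152, and an adjusted p of 0.0657. Liver replicate 1 was outside the range of the other 10 libraries for 12 of the 13 shares and liver replicate 2 for these 3.

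**Figure D3:**
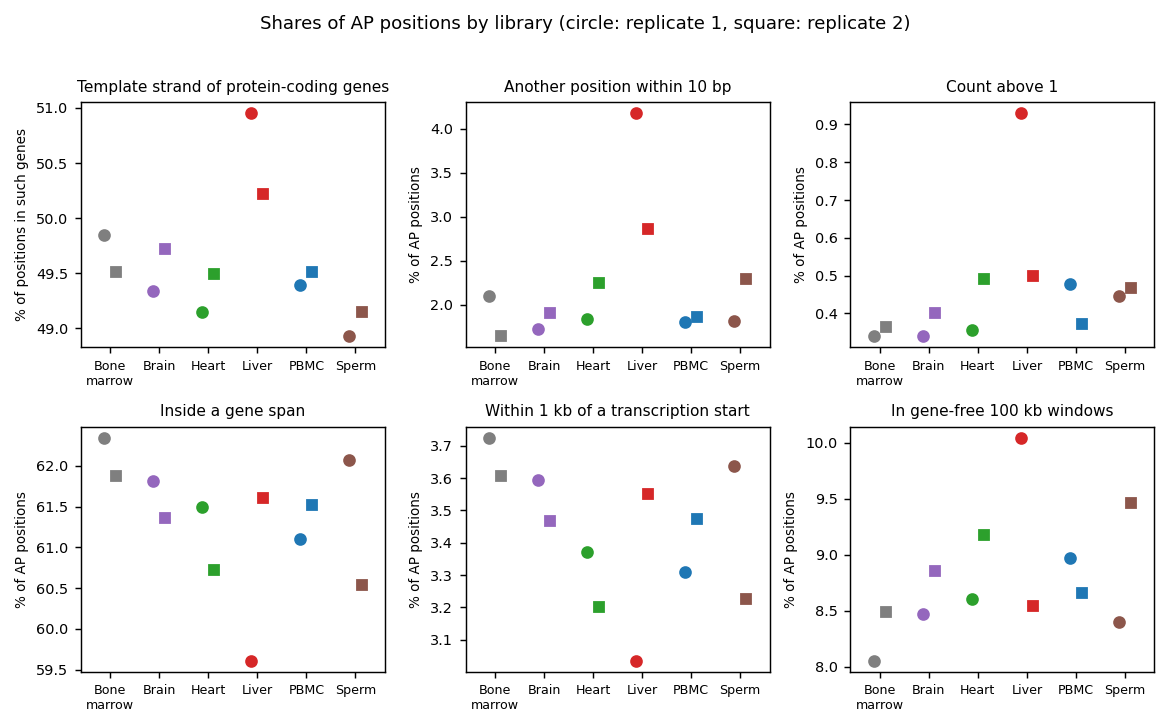
Shares of AP positions (y axes, percent, not starting at 0) in each of the 12 AP libraries, by tissue (x axes); circles are replicate 1 and squares replicate 2. In the upper row both liver libraries lie above the other 10, and in the lower row liver replicate 1 lies outside them and liver replicate 2 among them.

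Both liver libraries had a larger share of AP positions on the template strand of protein-coding genes than all 10 others. The difference did not pass the adjusted threshold. Of the positions inside a single protein-coding gene of known strand, 50.95% lay on the template strand in liver replicate 1 and 50.22% in liver replicate 2. The lowest of the other 10 libraries had 48.9%, the median 49.4% and the highest 49.8%. The liver values rest on 180289 and 176511 positions, with 95% Wilson intervals of 50.7% to 51.2% and 50% to 50.5%, which cover counting error only. The mean difference was 1.18 percentage points (exact permutation p = 0.0152, adjusted p = 0.0657). Without liver replicate 1 it was 0.82 points. The interval of bone marrow replicate 1, 49.6% to 50.1%, overlapped that of liver replicate 2. In each of the other tissues the shallower library had the higher template share, such as 49.85% and 49.51% in bone marrow replicates 1 and 2. The liver libraries were the shallowest of all, and the part of depth in the difference was not tested. The difference was as large among positions without close neighbours or repeated counts. The liver values were 50.9% and 50.2% among isolated positions, and the same among positions with a count of 1, against at most 49.8% in the others. In genes on the plus strand of the chromosome they were 50.1% and 49.6% (others 48.1% to 49%), and in genes on the minus strand 51.9% and 50.9% (others 49.8% to 50.9%). Both liver libraries were above all others in each of 4 classes of gene length as well. In genes under 20 kb the template share was 51.7% and 51.3% (others 49.7% to 50.9%), and in genes over 500 kb it was 50.2% and 49.5% (others 48.4% to 49.2%). Within the first 5 kb of genes it was 52.1% and 51.9%, against 49.2% to 51% in the others. Of 19 chromosomes with genes of known strand other than Y, liver replicate 1 was above the mean of the other libraries on 19 and liver replicate 2 on 16. Both liver libraries were above all others on 10 of the 19. Liver replicate 2 was within the others on chromosomes such as X (49.5% and 48.7% in liver, others 46.9% to 49.4%) and 3 (50.1% and 48.8%, others 47.9% to 49.5%). In hepatocyte genes the liver libraries fell on opposite sides, with 46.8% (95% Wilson interval 42.7% to 51%) of 547 positions in liver replicate 1 and 53.3% (48.9% to 57.7%) of 495 in liver replicate 2. In the SSB libraries made from the same samples the liver values were 45.5% and 45.8%, inside the range of 44% to 47.4% of the others (exact permutation p = 0.985).

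Close neighbours were more frequent in liver. At equal depth, 4.175% of the positions of liver replicate 1 and 2.863% of those of liver replicate 2 had another position of the same library within 10 bp, on either strand. The other 10 libraries had 1.65% at the lowest, a median of 1.85% and 2.29% at the highest. The mean difference was 1.59 percentage points (exact permutation p = 0.0152, adjusted p = 0.0657), and 0.938 points without liver replicate 1. The excess lay at distances of 1 to 4 bp on the same strand. Liver replicate 1 had 5747 pairs of directly adjacent positions and liver replicate 2 had 3315, against 1070 to 2341 in the others with a median of 1378. At 2 bp the numbers were 1412 and 716 (others 230 to 505), at 3 bp 429 and 232 (others 142 to 200) and at 4 bp 198 and 191 (others 137 to 172). From 4 to 10 bp on the same strand the liver libraries had 980 and 1063 pairs in all, beside 985 to 1165 in the others, so that liver replicate 2 was within their range and liver replicate 1 just below it. On opposite strands within 10 bp they had 1181 and 1378, beside 1254 to 1483. On opposite strands the number at 4 bp was 132 and 170 in liver and 159 to 232 in the others. The 2 runs of 3 adjacent nucleotides shown above for Ola1 and Gm12119 are examples of such neighbours. Within promoter windows as a whole, liver had 55 and 37 adjacent pairs at the depth of each library, inside the range of 20 to 64 of the deeper others. Depth moved with the number of adjacent pairs although all libraries had been thinned to the same size. Among the other tissues the 4 libraries of lowest depth, bone marrow replicate 1, sperm replicate 2, heart replicate 2 and brain replicate 2, had the 4 highest numbers, 1849, 2341, 2253 and 1576. The liver libraries were the shallowest of all, and the part of depth in the result was not tested. In SSB libraries the close share of liver was 0.993% and 0.972%, inside the range of 0.828% to 2.31% of the other tissues (exact permutation p = 0.303).

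**Figure D4:**
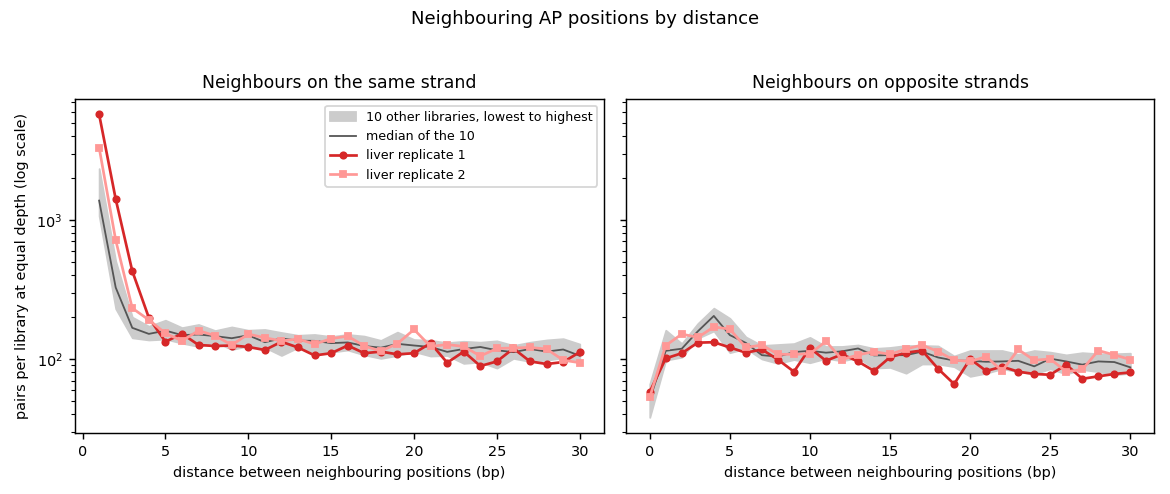
Number of pairs of neighbouring AP positions (y axis, log scale) by their distance in bp (x axis), at 460719 positions per library; left, both on one strand, right, on opposite strands. Lines with points are the liver libraries and the grey band spans the other 10; the liver lines lie above the band at 1 to 4 bp on one strand, with 5747 and 3315 pairs at 1 bp.

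Positions with a count above 1 made up 0.929% of liver replicate 1 (95% Wilson interval 0.902% to 0.956%) and 0.4997% of liver replicate 2 (0.48% to 0.52%). In the other 10 libraries they made up 0.34% at the lowest, a median of 0.386% and 0.49% at the highest. Liver replicate 2 exceeded the highest of the others, heart replicate 2, by less than the width of its interval, so only the value of liver replicate 1 stood clearly above them. The mean difference was 0.309 percentage points (exact permutation p = 0.0152, adjusted p = 0.0657), and 0.0941 points without liver replicate 1. Nearly all such positions had a count of exactly 2, 98.8% and 98.6% of them in liver. They were more often shared with other tissues than positions with a count of 1, of which 2.34% and 2.71% were found in another tissue (others 2.38% to 2.83%). In liver replicate 1, 4.25% of the positions with a count above 1 were also found in another tissue, and in liver replicate 2 5.78%, against 5.79% to 9.3% in the other libraries, where all 12 libraries entered at their own depth. The SSB libraries of liver had 0.256% and 0.355%, inside the range of 0.14% to 1.23% of the other tissues (exact permutation p = 0.424).

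For none of the remaining 10 shares did both liver libraries lie outside the others. In liver replicate 1, 59.61% of the positions lay inside a gene span, less than in any other library, and in liver replicate 2 61.61%, inside the range of 60.5% to 62.3% of the others (exact permutation p = 0.152). Within 1 kb of a transcription start the shares were 3.035% and 3.552%, beside 3.2% to 3.72% (p = 0.348 in the same exact test). Near transcript ends they were 2.952% and 3.254%, beside 3.08% to 3.31%. Protein-coding spans held 50.83% and 52.79% (others 51.7% to 53.6%), and the windows with 5 or more gene starts 12.37% and 14.05% (others 12.8% to 14.7%). Genes over 500 kb, of which there are 235, held 8.384% and 7.641% (others 7.27% to 8.29%), and gene-free windows 10.04% and 8.541% (others 8.05% to 9.46%). Chromosome X held 1.832% and 1.629% (others 1.58% to 1.74%), and chromosome Y 0.1335% and 0.1148% (others 0.104% to 0.168%). Liver replicate 1 was thus lowest inside gene spans and near their ends, and highest in genes over 500 kb, in gene-free windows and on chromosome X, while liver replicate 2 kept within the other tissues for each of these measures. Positions shared with another tissue at equal depth made up 1.42% in liver replicate 1, below all others, and 1.621% in liver replicate 2, inside the range of 1.54% to 1.83% of the others (exact permutation p = 0.0455, adjusted p = 0.148).

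AP sites were denser around gene starts in liver as in the other tissues. In the first 250 bp of protein-coding genes LPKM-AP was 0.695 in liver replicate 1 and 0.918 in liver replicate 2, from 1479 and 1849 positions, while 8 to 10 kb before the start it was 0.401 and 0.435. The other 10 libraries had 0.746 to 1.04 in the first 250 bp and 0.407 to 0.461 at the distant bins. At the 3' end, the last 250 bp of genes had 0.606 and 0.64 (others 0.576 to 0.635), and the 250 bp beyond them 0.566 and 0.608 (others 0.552 to 0.592). Liver replicate 2 was the highest of all 12 libraries in both of these bins, while it was within the others near gene starts. Its lead in the 2 bins was small, rests on 1290 and 1225 positions, and was not tested against counting error. From 250 to 1000 bp inside the 3' end the values were 0.716 and 0.799 (others 0.77 to 0.853).

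Promoter windows also gave the bases at the positions, from 2927 positions in liver replicate 1 and 3448 in liver replicate 2. Offsets were counted along the strand of the lesion, with 0 at the recorded nucleotide and negative offsets on its 5' side. The strongest preference lay 2 nucleotides before the recorded one, where C made up 50% and 52.9% of the bases in liver (others 51.2% to 56.6%), against 26.9% in all promoter windows. A made up 5.27% and 4.88% there and T 7.99% and 7.27%, against 23.1% each in all windows. At the recorded nucleotide itself A was the most frequent base, with 37.7% and 37.9% (others 36.3% to 41.1%), followed by G with 34.1% and 36.6%. The pattern was that of the other tissues, with small differences. One nucleotide before the recorded one, C made up 35.3% and 38.5% in liver and 39% to 42.1% in the others, and A 12.9% and 12.3% against 9.14% to 11.6%. For both, the liver libraries lay outside all others (exact permutation p = 0.0152), but over the 44 combinations of base and offset no adjusted p was below 0.19.

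No gene passed the test of liver against the other tissues. Of 41370 genes tested with edgeR's quasi-likelihood test, 0 (0%) had an adjusted p under 0.05. At an unadjusted p under 0.05 there were 739 genes higher in liver (1.79% of those tested) and 1079 lower (2.61%). DESeq2's Wald test also called 0, with 293 at an unadjusted p under 0.05. Both liver libraries were above all 10 others for 891 genes (2.15%) and below all of them for 948 (2.29%). The median gene had 1 position in each liver library and the median protein-coding gene 4. Among the 5439 genes with a mean of at least 20 positions per library, 89 (1.64%) were higher and 311 (5.72%) lower at an unadjusted p under 0.05. The balance of the directions turned on the scaling. Fitted on these genes alone, 177 were higher and 153 lower, and over all genes there were 889 higher and 851 lower without TMM factors and 1099 higher and 523 lower at equal depth. The median log2 fold change of all genes moved from -0.06 to 0.07 at equal depth.

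Among these well-covered genes the smallest p for a lower level in liver belonged to Piezo1, a mechanically gated cation channel, on chromosome 8 from 122481698 to 122551329. Its LPKM-AP was 0.413 and 0.717 in the liver libraries, from 14 and 23 positions, and 0.805, 1.01 and 1.43 at the lowest, the median and the highest of the others. Both liver libraries were below all others, with a log2 fold change of -0.93 ± 0.23 (SE, edgeR adjusted p = 0.823). Without liver replicate 1 it was -0.60. Lama5, a laminin chain of basement membranes (chromosome 2, 180176373 to 180225904), had 0.456 and 0.745 in liver and 0.78 to 1.54 in the others, with a median of 1.14. Lzts1, a leucine zipper protein, had 0.358 and 0.505, against 0.745 to 1.12. The non-coding gene Gm34805 had 0.343 and 0.302, from 6 and 5 positions, against 0.58 to 0.97. Lpcat1, an acyltransferase that remodels phosphatidylcholine, had 0.627 and 0.618, against 0.916 to 1.34. In these 5 genes both liver libraries lay below all others, and the fold changes ran from -1.36 for Gm34805 to -0.905 for Lpcat1 on the log2 scale.

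On the higher side, Erbb4 had the smallest p, and it turned on a single library. Erbb4, a receptor for neuregulins that is over a megabase long (chromosome 1, 68031884 to 69108576), had LPKM-AP of 0.387 in liver replicate 1 and 0.246 in liver replicate 2, from 203 and 122 positions, and 0.199, 0.236 and 0.284 at the lowest, the median and the highest of the others. Without liver replicate 2 its log2 fold change was 0.71 with an edgeR adjusted p of 0.00431, and without liver replicate 1 it was -0.02. In the other 4 genes both liver libraries were above all others. Bicra, a subunit of a chromatin remodelling complex, had 0.689 and 0.812, against 0.249 to 0.595 with a median of 0.447. Myh15, a myosin heavy chain, had 0.578 and 0.489, against 0.237 to 0.419. Strbp, a protein that binds double-stranded RNA, had 0.445 and 0.389, against 0.185 to 0.36. Pald1 (chromosome 10, 61319656 to 61383546) had 0.997 and 1.39, against 0.585 to 0.971. Their log2 fold changes were 0.73 for Bicra, 0.62 for Myh15, 0.71 for Strbp and 0.59 for Pald1, none past the adjusted threshold, and that of Pald1 was 0.38 without liver replicate 2.

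The protein-coding genes with the highest LPKM-AP in liver were dense in the other tissues as well. Sfi1, which encodes a centrosomal protein (chromosome 11, 3131850 to 3203347), had 15.6 and 18.1 from 544 and 596 positions, beside 14.3 to 19.5 in the others. Hjurp, the chaperone of centromeric histone H3, had 6.12 and 6.47 (others 4.97 to 6.8). Its neighbour Mroh2a had 4.19 and 5.78 (others 5.35 to 6.73). Further genes of this kind lay near each other on chromosome 1, such as C130026I21Rik with 4.15 and 5.37 (others 3.76 to 4.74), Sp110 with 3.43 and 3.35 (others 3 to 4.06) and Sp140 with 3.18 and 3.43 (others 2.66 to 3.54). The values of C130026I21Rik, Sp110 and Sp140 are uncertain, since this cluster holds close copies whose reads may be placed on one another and the spans of genes overlap. The spans of Hjurp and Mroh2a overlap as well, so positions in the shared stretch count for both. Whether copies elsewhere in the genome enter the value of Sfi1 was not tested. Ugt1a2, one of the enzymes that conjugate compounds with glucuronic acid in liver, had 2.44 and 2.35 (others 2.24 to 3.47). Mta1, a chromatin protein on chromosome 12, had 1.42 and 1.23 (others 0.667 to 1.54).

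Between the liver libraries themselves, 9 of the 5439 well-covered genes differed in an exact binomial test with Benjamini-Hochberg adjustment, which again compares these libraries only. Gramd4 differed most, with LPKM-AP of 0.437 in liver replicate 1 and 1.55 in liver replicate 2, from 17 and 57 positions, while the others had 0.682 to 1.32. The long gene Nkain2 had 0.245 and 0.137 (others 0.153 to 0.213). Msi2, an RNA-binding protein, had 0.569 and 0.951 (others 0.745 to 0.951), and Gm4983 had 0.141 and 0.803 (others 0.271 to 0.486). In Nkain2 liver replicate 1 was the highest of all libraries and liver replicate 2 the lowest. In Gramd4, Msi2 and Gm4983 liver replicate 1 was the lowest and liver replicate 2 the highest.

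In the liver libraries hepatocyte genes carried AP sites at about the level of all genes. Of 77 hepatocyte genes listed, all were tested, 0 passed the adjusted threshold, and at an unadjusted p under 0.05 1 was higher and 4 were lower, to be read beside 1.79% and 2.61% of all genes. Their median log2 fold change was 0.08, beside -0.06 for all genes. Taken as one length, the 77 genes had LPKM-AP of 0.496 in liver replicate 1 and 0.493 in liver replicate 2, beside 0.448 to 0.492 in the other libraries. Both liver libraries were thus above all others, liver replicate 2 only barely. All genes had 0.483 and 0.5, beside 0.491 to 0.506. Without the longest member, Dpyd, the values were 0.539 and 0.583, inside and above the range of 0.519 to 0.57 of the others. Slco1b2, an organic anion transporter, was the hepatocyte gene with both liver libraries above all others, at 0.323 and 0.342 (others 0.148 to 0.303), and Serpina3k, a protease inhibitor, the one with both below, from 1 and 0 positions. Ass1, which makes argininosuccinate in the urea cycle, had 0.53 and 0.646, beside 0.639 to 1.2, and an unadjusted p of 0.0045. F9, coagulation factor IX on chromosome X, had 0.588 and 0.207, beside 0.0512 to 0.245, from 9 and 3 positions. Apoa1 was also at an unadjusted p under 0.05, on the lower side.

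In none of 12 well-known hepatocyte genes did both liver libraries lie beyond all others on one side. Alb, for serum albumin, had 0.784 and 0.552 from 6 and 4 positions (others 0.33 to 0.917). Apob, the protein of very low density lipoproteins, had 0.838 and 1.38 from 16 and 25 positions (others 0.451 to 1.29). Cps1, the first enzyme of the urea cycle, had 0.642 and 0.499 from 34 and 25 positions (others 0.284 to 0.534). In each of these genes at least 1 liver library was inside the range of the others. Hnf4a, a transcription factor of hepatocyte identity, had 0.56 and 0.788 (others 0.568 to 0.881). Trf, for transferrin, had 1.06 and 1.01 (others 0.487 to 1.39), and Ttr, for transthyretin, 0.812 and 1.29 (others 0.209 to 1.02). Pck1, the rate-limiting enzyme of gluconeogenesis, had 0.331 and 2.45 from 1 and 7 positions (others 0.502 to 1.71), so its liver values lay on both sides of the other tissues. Cyp2e1 and Cyp3a11, monooxygenases of drug metabolism, had 1.1 and 0.971 (others 0.76 to 1.43) and 0.163 and 0.344 (others 0.164 to 0.528). Fgb, a fibrinogen chain, had 1.08 and 0.855 (others 0.555 to 2.09), and Serpina1a, for an antitrypsin, 1.19 and 0.631 (others 0 to 1.26). Apoa1, for the main protein of high density lipoproteins, is 1.84 kb long and had 0 positions in both liver libraries, beside 0 to 3.85 in LPKM-AP in the others. Its fitted fold change rests on these zeros and is not given.

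**Figure D5:**
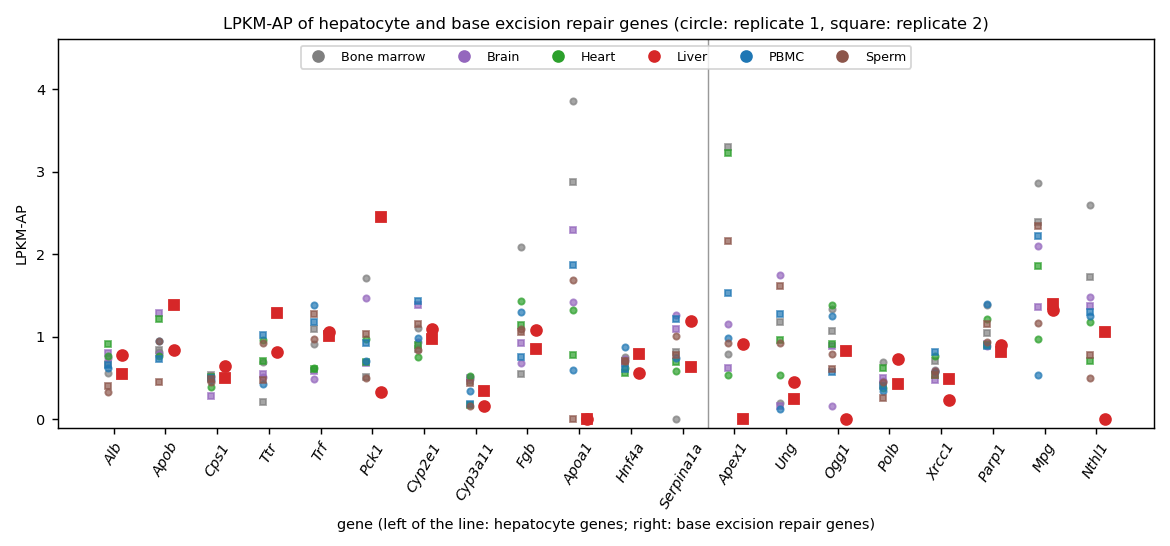
LPKM-AP (y axis) of 12 hepatocyte genes, left of the line, and 8 base excision repair genes, right of it, in each of the 12 AP libraries; colours are tissues, circles replicate 1, squares replicate 2, and liver is drawn larger. The liver values mostly fall among those of the other tissues. Examples outside them are Pck1 in liver replicate 2 (2.45), above, and Xrcc1 in liver replicate 1 (0.23), below. Single liver values of several further genes also lie above or below all others.

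Base excision repair genes had a lower summed LPKM-AP in liver than in any other library, without a gene that passed the test. Of 27 such genes, 0 passed the adjusted threshold and 0 had an unadjusted p under 0.05, but their median log2 fold change was -0.35 and 5 of 27 were above 0, beside 18817 of 41370 over all genes. As one length, the list had LPKM-AP of 0.485 and 0.49 in liver and 0.554 to 0.603 in the other libraries, so that both liver libraries were below all others. Without its longest member, Apex2, the values were 0.592 and 0.613 against 0.655 to 0.745. These values rest on 161 and 154 positions, and the list is a description without a test. Among the glycosylases, Ung, which removes uracil, had 0.459 and 0.242 (others 0.123 to 1.75), Ogg1, which removes oxidised guanine, 0 and 0.824 (others 0.165 to 1.38), Mpg, which removes alkylated bases, 1.33 and 1.4 (others 0.532 to 2.86), and Nthl1, which removes oxidised pyrimidines, 0 and 1.06 (others 0.506 to 2.59). Apex1, the main AP endonuclease, had 1 and 0 positions, and LPKM-AP of 0.541 to 3.3 in the others. Downstream, Polb, the gap-filling polymerase, had 0.73 and 0.428 (others 0.254 to 0.699), Xrcc1, the scaffold of the ligation step, 0.23 and 0.487 (others 0.472 to 0.813), and Parp1, a sensor of strand breaks, 0.896 and 0.811 (others 0.891 to 1.4). Lig3, the ligase that joins the strand with Xrcc1, was the member with both liver libraries below all others, at 0.709 and 0.75 (others 0.759 to 1.57). In each of these genes other than Lig3, at least 1 liver library was within the range of the other tissues.

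The lists for other cells of the liver and for other tissues gave no adjusted call either. The 12 Kupffer cell genes had a median log2 fold change of -0.45 and the 11 genes of liver endothelium -0.06, the 11 of stellate cells -0.01 and the 8 of cholangiocytes 0.06. At an unadjusted p under 0.05, which 1.79% of all genes reached on the higher and 2.61% on the lower side, there were 0 higher and 2 lower Kupffer cell genes, 1 higher and 0 lower cholangiocyte genes, and none of either direction for endothelium and stellate cells. For the lists of other tissues, the numbers were 2 higher and 1 lower for neurons, 1 and 4 for cardiomyocytes, 0 and 1 for blood and immune cells and 1 and 0 for spermatogenic cells. Among lists of other tissues, the 20 neuronal genes had LPKM-AP of 0.445 and 0.387 as one length (others 0.37 to 0.416), and the 20 cardiomyocyte genes 0.657 and 0.682 (others 0.695 to 0.795). The 20 blood and immune genes had 0.6 and 0.672 (others 0.647 to 0.711), and the 20 spermatogenic genes 0.314 and 0.261 (others 0.235 to 0.299). Both liver libraries were below all others for the cardiomyocyte genes, and for the other 3 lists liver replicate 2 was within their range. Without their longest member, Cacna1c, the cardiomyocyte genes had 0.647 and 0.609 (others 0.636 to 0.752), and liver replicate 1 was within the others.

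As for genes, no window of 100 kb passed the test. At an unadjusted p more windows were higher than lower in liver, while more genes were lower than higher in the main fit. Of 26003 windows, 0 (0%) passed the adjusted threshold in edgeR and 0 in DESeq2, with 853 (3.28%) higher and 653 (2.51%) lower in liver at an unadjusted edgeR p under 0.05. Both liver libraries were above all others in 777 windows (2.99%) and below them in 652 (2.51%). Among the windows of smallest p on the lower side were those within Lama2 on chromosome 10 (LPKM-AP of 0.226 and 0.0434, others 0.284 to 0.456), at Lpcat1 on chromosome 13 (0.534 and 0.412, others 0.708 to 1.01), within Adgrv1 on chromosome 13 (0.185 and 0.195, others 0.341 to 0.505) and around Itgb4 on chromosome 11 (0.37 and 0.434, others 0.516 to 0.914). The windows of smallest p on the higher side were at Prf1 and Pald1 on chromosome 10 (0.945 and 1.26, others 0.505 to 0.824), in stretches without a protein-coding gene on chromosomes 14 and 15, and within Gpc6 (0.801 and 0.803, others 0.341 to 0.587) and Lsamp (0.493 and 0.564, others 0.235 to 0.361). Without liver replicate 1 the log2 fold change of the Lama2 window went from -1.37 to -2.97, and without liver replicate 2 to -0.69, while that of the window at Prf1 and Pald1 went from 0.70 to 0.46 without liver replicate 2. In each of these windows both liver libraries lay on one side of the others, and the edgeR adjusted p was 0.513. The densest window of liver was that of Sfi1, with 12.2 and 14.5 (others 11.6 to 15.9). A window on chromosome 17 from 39800001 to 39900000 without a protein-coding gene differed most between the liver libraries, with 1.95 and 4.32, from 95 and 199 positions (exact binomial adjusted p = 1.05e-06), while the others had 1.88 to 4.89.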

How the data were processed

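The deposited data held, for each library, 1 line per lesion position with chromosome, nucleotide, strand and a whole-number count. The authors made these positions and counts from reads of SSiNGLe (SSBs) and SSiNGLe-AP (AP sites). The build was mm10 (GRCm38) per the submitters' processing notes, and the aligner and filters are not given in the sources used here. The counts were not normalized. RNA samples and other ages were not analysed here.

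The 12 AP libraries held 460719 to 963258 positions each, and the 12 SSB libraries made from the same samples were used only beside 3 AP shares. Each position was counted once per RefSeq gene span (49939 genes of GRCm38.p6), gene end (1000 bp) and 100 kb window. Strand was known for 27024 genes. LPKM-AP was the number of positions times 1e+09 over the product of length in bp and library size. Genes and windows with a position in at least 20% of libraries were tested with edgeR 4.0.16 (quasi-likelihood, TMM, 1 term per tissue, liver minus the mean of the 5 other tissues) in R 4.3.3, with Benjamini-Hochberg adjustment and a threshold of 0.05. DESeq2 1.42.0 and limma 3.58.1 on log2(LPKM + 1) were alternatives. Shares were compared with a two-sided exact permutation test over 66 choices. For equal depth, libraries were thinned to 460719 positions. The variance between 2 libraries was set against the Poisson variance over windows or genes with at least 20 positions in the pair. The edgeR step was tested on simulated data.

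Named were, among genes with a mean of at least 20 positions, the 5 of smallest p in each direction and the 5 that differed most between the liver libraries, then the 10 protein-coding genes of highest liver LPKM-AP with at least 20 positions in both, the 5 windows of smallest p in each direction, and listed hepatocyte and repair genes. Further list members were named where they were at an unadjusted p under 0.05 or had both liver libraries outside the others. The comparison, the gene lists and the tests were chosen with earlier results of these data known. Some items that this rule names are not reported here. Sequences are from RefSeq promoter windows. Whether a replicate number marks the same mouse in every tissue is not known, and the main tests did not treat the numbers as pairs. Over 15 pairs of tissues, the correlation of the differences between replicates across 1 Mb windows ran from -0.584 to 0.382, above 0.1 in 7 pairs and below -0.1 in 7. These values cannot tell whether a number marks a mouse, since differences between single libraries enter them. Intervals cover counting error only. Alternatives changed the scaling, filter, tool, depth, window size, distances, chromosomes and libraries.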

Additional observations from a re-analysis of the deposited data

How the results depend on the processing

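The 3 shares above all other libraries kept their direction in all alternatives run, with adjusted p from 0.0556 to 0.394. Leaving out liver replicate 1 turned the sign of 8 other shares, in percentage points liver minus others: gene span to 0.124, protein-coding span to 0.138, transcription start to 0.0913, transcript end to 0.0452, long genes to -0.139, gene-free windows to -0.172, gene-dense windows to 0.334 and chromosome X to -0.0196. The share on chromosome Y, -0.000331 in the main analysis, became 0.000663 with counts summed, 0.00903 without liver replicate 2, and 0.00455 and 0.00437 without either PBMC library. Leaving out each library in turn gave -1.87 to 0.124 for gene span, -1.83 to 0.138 for protein-coding span, -0.426 to 0.0913 for transcription starts, -0.257 to 0.0452 for transcript ends, -0.139 to 0.603 for long genes, -0.172 to 1.33 for gene-free windows, -1.34 to 0.334 for gene-dense windows, -0.0196 to 0.184 for chromosome X and -0.00969 to 0.00903 for chromosome Y. Genes past the threshold were 25 with limma on log2(LPKM + 1), with a median length of 930 bp and a median of 0.417 positions per library, and 0 to 1 when libraries were left out (Snhg11 without bone marrow replicate 2 or sperm replicate 1, Erbb4 without liver replicate 2). The log2 fold change of Erbb4 was -0.0202 without liver replicate 1 and 0.707 without liver replicate 2. The variance ratio of the liver pair was 2.87 in 1 Mb windows and 1.38 in genes. A replicate block called 0 genes and 0 windows, with 1646 and 1451 at an unadjusted p under 0.05, left the shares as they were and changed no call. Leaving out both sperm libraries, chosen after seeing the data, called 0 genes and 0 windows. The cause of these changes was not tested. With 2 liver libraries the smallest p of the exact test was 0.0152, and the median gene had 1 position in each.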

Other observations

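The nucleotides with the highest counts in liver were also found in all 12 AP libraries. On chromosome 10, the minus strand nucleotide at 72297176 had a count of 43 in liver replicate 1 and 24 in liver replicate 2, and 14 to 32 in the others, with its neighbours at 72297175 (21 and 16, others 10 to 19) and 72297177 (20 and 14, others 14 to 28). They lie in no RefSeq gene, 12025 bp from Gm9923 for the first of them. On chromosome 7, the plus strand nucleotides at 104428094 and 104428095, inside the span of Trim30a, a gene of the tripartite motif family, had 13 and 21 in liver replicate 1 and 19 and 6 in liver replicate 2. The others had 7 to 21 at the first and 6 to 14 at the next. In these raw counts liver replicate 1 was above all others at 72297176, 72297175 and 104428095, and liver replicate 2 at none of them. The counts were not scaled to depth, and the liver libraries were the shallowest of the 12. Relative to depth, liver replicate 2 was above the others at 72297176 as well, with 24 in 460719 positions. The largest counts of any nucleotide in the others were 32 in 910316 positions (PBMC replicate 1) and 31 in 712393 (brain replicate 2). The nucleotides were picked by their liver counts, which favours liver in this comparison. For the other nucleotides the values relative to depth were not tested.

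The densest clusters of positions in liver lay outside RefSeq genes. In liver replicate 1, 13 positions fell between 75086780 and 75086819 on chromosome 15, 6 between 75086444 and 75086460, and 7 between 8246352 and 8246375 on chromosome 3. In liver replicate 2, 7 fell between 75086834 and 75086861 on chromosome 15, and 9 and 7 within the chromosome 17 window that differed most between the liver libraries. In all, liver replicate 1 had 262 clusters of 3 or more positions and liver replicate 2 had 163, at the depth of each library, beside 155 to 583 in the other 10.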
